A study of Mus musculus with 32 samples.

Results

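The ligands and receptors that guide growing axons were followed through the second part of mouse gestation in brains with and without Dhcr7. The genes were chosen by symbol alone: Eph receptors and ephrins, class 3 to 7 semaphorins with their plexin and neuropilin receptors, netrins with Dcc and the Unc5 receptors, and Slits with Robos. This gave 69 genes of the 55291 symbols counted. They were 9 EphA and 5 EphB receptors, 5 ephrin-A and 3 ephrin-B ligands, 7 class 3, 6 class 4 and 7 class 5 to 7 semaphorins, 9 plexins, 2 neuropilins, 4 netrins, 5 netrin receptors, 3 Slits and 4 Robos. Polyadenylated RNA was counted in 32 libraries, each of 1 brain sample of strain C57BL/6J. WT samples carried Dhcr7+/+ and KO samples Dhcr7-/-. Each genotype was sampled at E12.5, E14.5 and E16.5 (E for embryonic day) and on the day of birth (PND0), with 4 libraries in each of the 8 groups. The labels name no litter or sex and do not say that the libraries of a group came from separate animals, so p-values measure the spread between these libraries. Dhcr7 encodes 7-dehydrocholesterol reductase, which turns 7-dehydrocholesterol into cholesterol, and its loss in people causes Smith-Lemli-Opitz syndrome.

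Axons steer by cues that attract or repel the growth cone. Ephrins are bound to the cell surface and signal both to the Eph receptor tyrosine kinases and back into the ephrin-bearing cell. Class 3 semaphorins are secreted and act through neuropilin and plexin A complexes, while the other vertebrate classes are mostly membrane-bound and bind plexins directly. Netrin-1 attracts axons through Dcc and repels them through Unc5 receptors. Slits repel axons through Robo1 and Robo2, and Robo3 lets commissural axons reach and cross the midline. Several of the same receptors also serve outside axons, for example Ephb4, Plxnd1 and Robo4 in blood vessels.

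Library totals ran from 13868087 to 28318857 counts. A count of 0 allows up to 3 counts, which is between 0.106 and 0.216 CPM (counts scaled to the total of the library) by library and covers counting error only. Dhcr7 itself was lower in every KO library than in every WT library of its stage, with means of 67.1 and 21.9 CPM at E12.5 and of 91.0 and 14.6 CPM at PND0. The 69 genes took between 0.592 and 0.756% of the counts in 31 libraries and 0.422% in E12.5 KO replicate 1. In that library 5.639% of counts fell on the ribosomal RNA gene CT010467.1, against at most 3.754% in any other. E12.5 WT replicate 1 stood apart in markers of tissue around the brain, with 105 CPM summed over 4 skeletal muscle genes against 10.4 to 27.4 CPM in the other WT libraries of that stage. It also held 22.9 CPM summed over 16 Hox genes of the hindbrain and spinal cord, which came to at most 6.86 CPM in any other library and to 0 in all 4 PND0 KO libraries. Marker genes of neurons and neural progenitors were present in all libraries. The 4 genes listed for the cerebellum summed to between 146 and 497 CPM by library. Of these, 3 had enough counts to test in KO against WT at E16.5 and PND0. How much of each brain region a library held was not tested. In bulk tissue, fewer cells of a type and less RNA per cell cannot be told apart, and each stage has a count table of its own, so stage and the handling of that stage cannot be told apart.

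RefSeq windows of 250 bases before the transcription start (build GRCm38.p6) were found for 59 of the 69 genes, 75 windows in all. Each window was searched on both strands. The GC box core GGGCGG, or its complement CCGCCC, was in 70.7% of these windows and in 32.7% of all 32851 RefSeq windows of the same length. The TATA motif TATAAA was in 2.67% of the windows of these genes, those of Efnb2 and Slit2, against 12.4% of all windows. CCAAT was in 26.7% against 33.8%. The median window held 15 CG dinucleotides, against 6 over all windows. A match is a stretch of letters and not a bound site. The windows of 3 Robo and netrin receptor genes are shown because the results turn on them: Robo3 fell most over the WT course, Unc5a rose most, and Robo1 was lower in KO at birth. Capitals mark GGGCGG or CCGCCC. The windows lie at chr9:37433176-37433425 on the minus strand (Robo3), chr13:54949161-54949410 on the plus strand (Unc5a) and chr16:72662899-72663148 on the plus strand (Robo1). The RefSeq starts used for Robo3 and Robo1 lie inside the annotated genes. Part of the Robo3 window and all of the Robo1 window lie there too.
Robo3: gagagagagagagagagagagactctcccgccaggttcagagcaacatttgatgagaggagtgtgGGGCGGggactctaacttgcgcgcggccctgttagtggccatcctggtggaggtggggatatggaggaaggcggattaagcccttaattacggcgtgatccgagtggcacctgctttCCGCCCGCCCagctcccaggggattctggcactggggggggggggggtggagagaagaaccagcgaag
Unc5a: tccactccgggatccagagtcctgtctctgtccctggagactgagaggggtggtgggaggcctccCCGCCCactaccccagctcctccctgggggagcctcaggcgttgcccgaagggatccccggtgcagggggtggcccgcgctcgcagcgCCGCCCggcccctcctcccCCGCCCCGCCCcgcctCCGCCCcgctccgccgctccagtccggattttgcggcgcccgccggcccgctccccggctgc
Robo1: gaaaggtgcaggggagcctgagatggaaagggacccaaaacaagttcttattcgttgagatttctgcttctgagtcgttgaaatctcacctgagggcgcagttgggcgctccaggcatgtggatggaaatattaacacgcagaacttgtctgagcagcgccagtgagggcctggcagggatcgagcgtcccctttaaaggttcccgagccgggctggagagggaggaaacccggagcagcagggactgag
The Robo3 window held the motif 3 times, overlapping matches included, the Unc5a window 5 times and the Robo1 window not at all.

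In WT brains nearly every one of these genes changed with age. Of the 68 genes with enough counts to test, 66 differed among the 4 stages (edgeR quasi-likelihood test, adjusted p under 0.05). The same test called 84.1% of all genes, so a change with age was the rule in this tissue. The class 3 semaphorins Sema3a and Sema3b did not pass (adjusted p = 0.125 and 0.305), and Ntn5 was too low to test. Sema3a held 52.1 CPM in E12.5 WT replicate 1 and 21.8 to 31.7 CPM in the other WT libraries of that stage. The genes did not move as a block: 11 had a mean that rose at each step, 10 had one that fell at each step, and the other 48 did neither. The highest mean lay at E12.5 for 18 genes, at E14.5 for 17, at E16.5 for 5 and at PND0 for 29. The median ratio of the highest to the lowest stage mean was 2.10, and 17 of the 69 genes reached 3-fold.

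**Figure D1:**
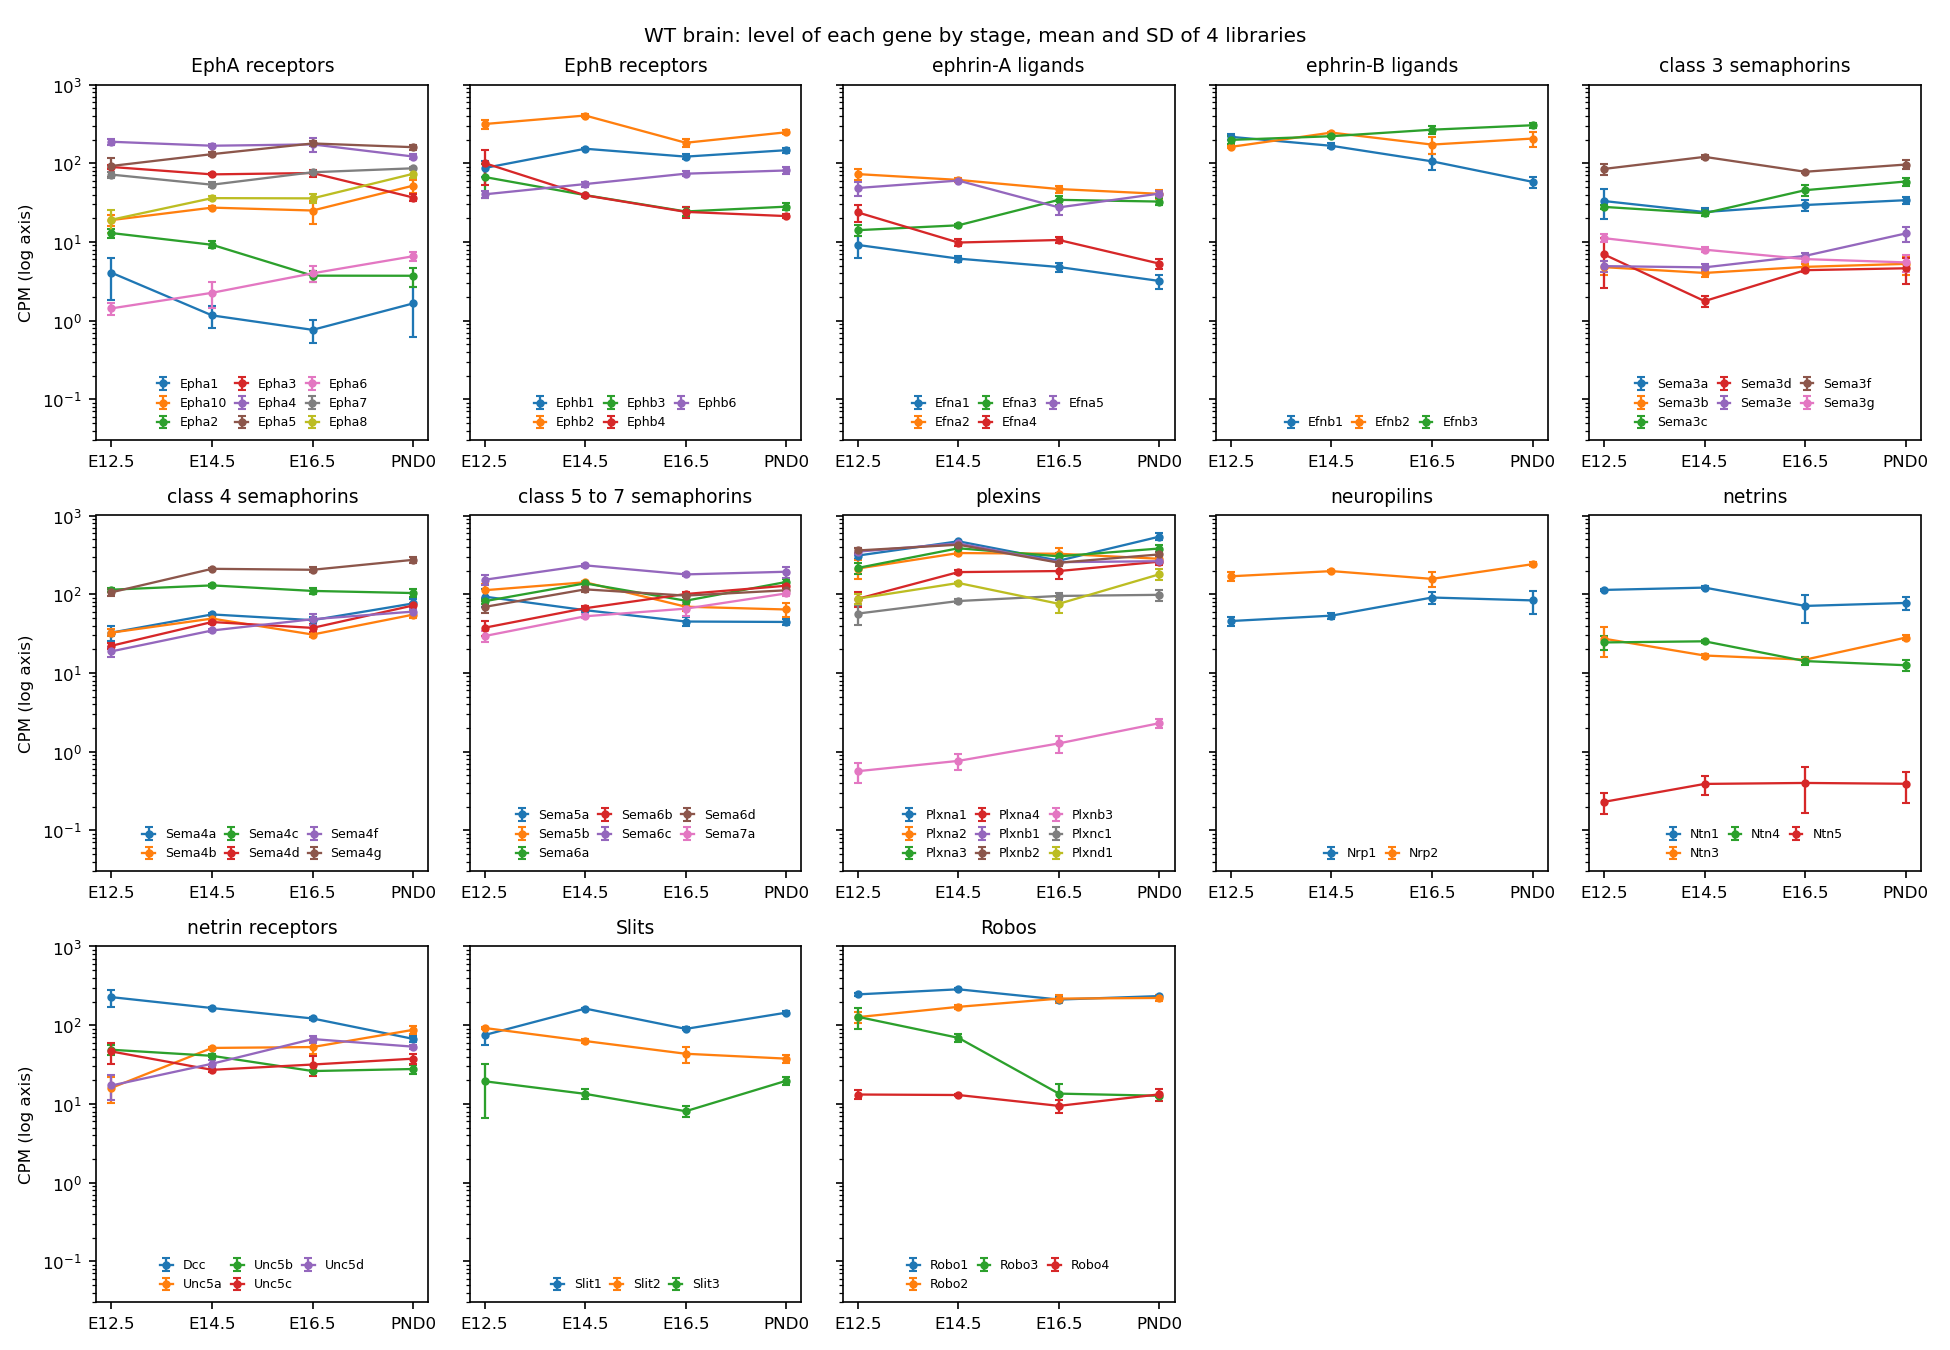
Mean level in WT brain of each gene (CPM, log axis) at E12.5, E14.5, E16.5 and PND0, in 1 panel per family, with bars for the SD of 4 libraries. Robo3 falls about 10.1-fold from 127.8 to 12.7 CPM, and Unc5a rises from 16 to 87.3 CPM.

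Between E12.5 and E14.5, 52 of the 68 genes changed, 32 upward and 20 downward (all genes 57.8%, 27.3% up and 30.5% down). Between E14.5 and E16.5, 53 changed, 18 upward and 35 downward (all genes 57.5%, 29.3% up and 28.2% down). Between E16.5 and PND0, 37 changed, 28 upward and 9 downward (all genes 53.2%, 26.0% up and 27.2% down). The median log2 fold change of the 68 genes was 0.22, -0.29 and 0.15 over the 3 steps, while that of all genes tested stayed between -0.03 and 0.01. Neighbouring steps share the libraries of the middle stage, so a high E14.5 value enters both of the first steps. From E12.5 to PND0, 35 genes rose and 21 fell (all genes 70.9%, 34.5% up and 36.4% down), with a median of 0.30 against -0.05 over all genes. Over all genes the changes had Spearman correlations with transcript length of 0.15, -0.13 and 0.25 over the steps, and of 0.17 from E12.5 to PND0. Over the 68 genes they were 0.08, -0.07, 0.02 and 0.02. With length offsets, which take such a trend out of each library, fewer genes rose or more fell in some families.

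Among the Eph receptors, the EphA group split evenly from E12.5 to PND0, with 5 of 9 rising and 4 falling (4 and 4 with length offsets). Epha6 rose most, by 2.20 on the log2 scale (SE 0.205, adjusted p = 3.6e-06), from 1.20, 1.53, 1.73 and 1.25 CPM at E12.5 to 7.07, 5.82, 7.55 and 5.84 CPM at PND0. The groups do not overlap, and Epha6 stayed among the less abundant receptors at both ages. Epha8 rose by 1.94 and Epha10 by 1.45. Epha2 fell by 1.81 (SE 0.210, adjusted p = 1.92e-05), from a mean of 13 ± 1.69 to 3.71 ± 1.0 CPM (SD of 4 libraries, as in all means here). Epha3 held near 72.1 to 75.0 CPM at E14.5 and E16.5 and fell by 1.09 between E16.5 and PND0. Epha4, a receptor for A and B ephrins, was the most abundant EphA receptor per length, at 25.6 CPM per kb of transcript averaged over the WT stages.

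The EphB receptors parted by direction. Ephb1 and Ephb6 rose and Ephb2, Ephb3 and Ephb4 fell from E12.5 to PND0. Ephb4, a venous receptor, fell by 2.24 (SE 0.282, adjusted p = 3.51e-05), from 167, 97.0, 56.1 and 80.8 CPM to between 20.5 and 22.8 CPM. The highest E12.5 value is that of replicate 1, the library with the high muscle and Hox gene sums, and without it the fall was 1.88. Ephb6 rose by 1.0 (SE 0.104, adjusted p = 7.85e-06). Ephb2 rose by 0.34 to 403 ± 14.2 CPM at E14.5, fell by 1.14 to 182 ± 19.4 CPM at E16.5 and rose again by 0.39 to 247 ± 13.2 CPM at PND0. Per kb of transcript Ephb1 and Ephb2 were the 2 highest EphB receptors, at 27.2 and 26.3 CPM per kb.

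4 of the 5 ephrin-A ligands changed from E12.5 to PND0, and 3 of them fell. Efna4 fell by 2.17 (SE 0.200, adjusted p = 3.28e-06), from 31.2, 24.3, 16.6 and 22.6 CPM to 4.93, 4.85, 6.41 and 4.98 CPM. Efna1 and Efna2 fell at every step in their means. Efna3 went the other way, by 1.20 (SE 0.130, adjusted p = 1.11e-05), and of its 3 steps only that from E14.5 (16.2 ± 0.783 CPM) to E16.5 (34.2 ± 4.63 CPM) passed. Efna5, a ligand of retinal and thalamic maps, fell by 1.12 between E14.5 and E16.5 and rose by 0.52 to PND0, and from E12.5 to PND0 it was at -0.24 (adjusted p = 0.137; with length offsets -0.40, adjusted p = 0.0174). Efna2 was the highest ephrin-A per length, at 26.0 CPM per kb.

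The ephrin-B ligands were abundant for their length, at 40.9 to 77.6 CPM per kb. Efnb3, the ephrin that keeps corticospinal axons on their side of the spinal cord, ranked first of the 69 genes at 77.6 CPM per kb and rose by 0.62 from E12.5 to PND0 (SE 0.0914, adjusted p = 0.00012). Efnb1 ran against it. It held 197, 236, 204 and 227 CPM at E12.5 and 54.5, 63.5, 46.6 and 67.2 CPM at PND0, a fall by 1.90 (SE 0.116, adjusted p = 1.93e-07) with no overlap of the groups. At E12.5 Efnb1 and Efnb3 were near one another in CPM per kb (66.3 and 62.1), and at PND0 they stood at 17.8 and 95.4.

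**Figure D2:**
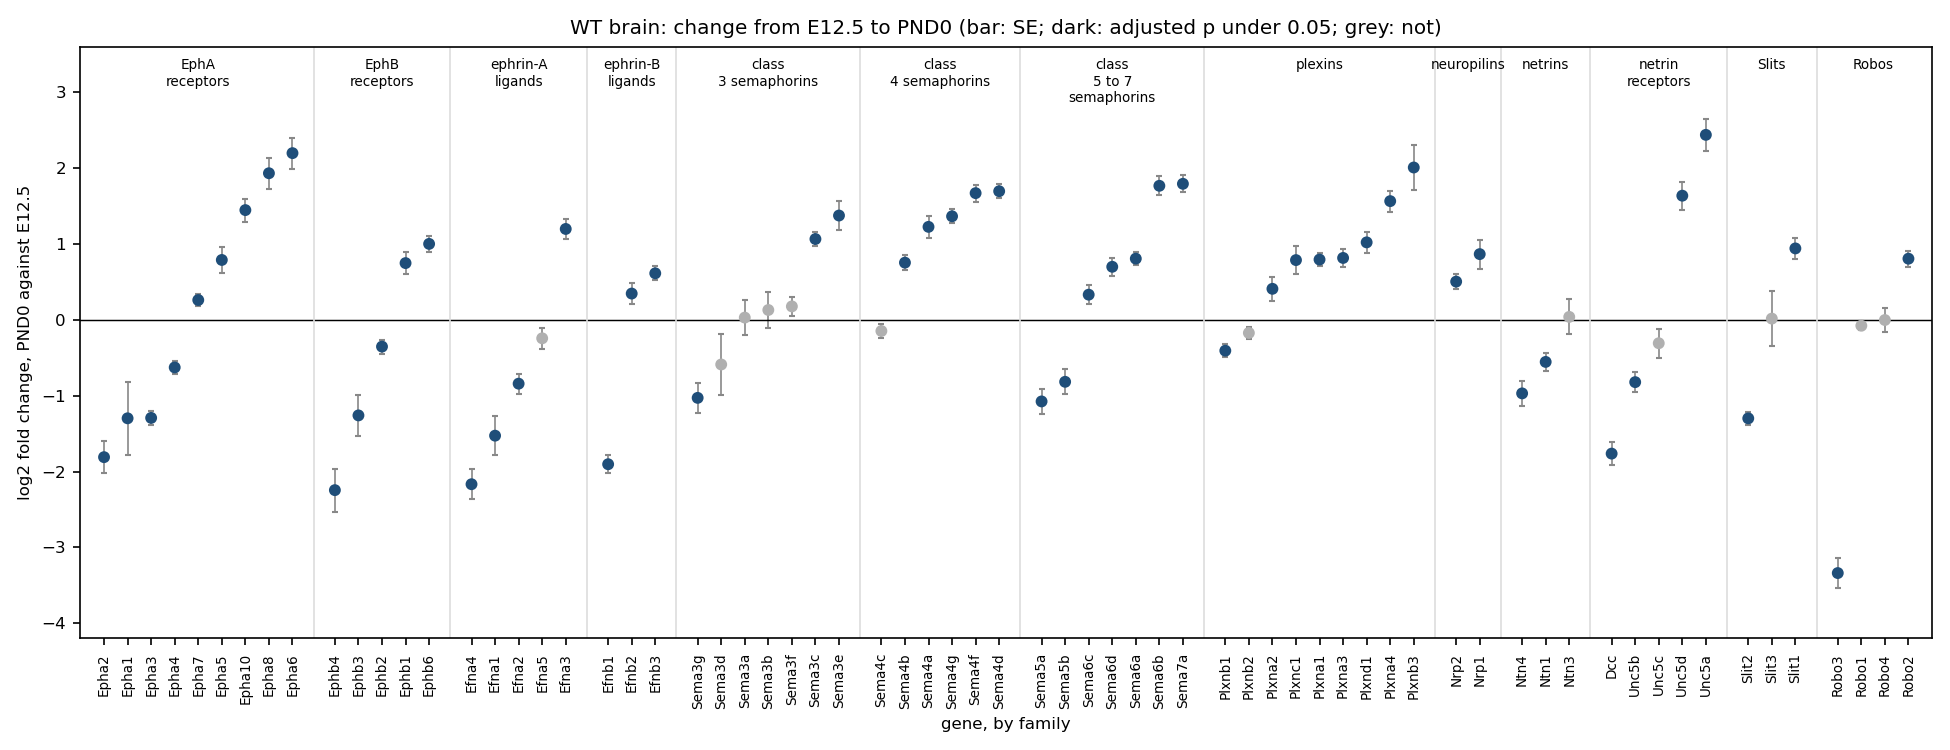
Log2 fold change in WT brain from E12.5 to PND0 for the 68 genes tested, by family, with bars of 1 SE and dark points for an adjusted p under 0.05. Robo3 is lowest at -3.34 and Unc5a highest at 2.44, and 5 of the 6 class 4 semaphorins lie between 0.76 and 1.70.

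Of the 7 secreted class 3 semaphorins, 1 rose and 3 fell at the first step, 4 rose and 2 fell at the second, and 3 rose at the third (1 with length offsets). Sema3d fell by 1.99 at the first step (adjusted p = 0.00249; by 1.46 without E12.5 WT replicate 1) and rose by 1.31 at the second. From E12.5 to PND0, 3 of 7 changed: Sema3c and Sema3e rose and Sema3g fell. Sema3e, the Plxnd1 ligand, rose by 1.38 (SE 0.195, adjusted p = 8.47e-05), from 6.03, 4.67, 4.79 and 4.19 CPM to 16.6, 12.02, 12.8 and 9.71 CPM. Sema3g fell by 1.03 (SE 0.196, adjusted p = 0.000737). Sema3f, which signals through Nrp2, was the most abundant at 27.9 CPM per kb and peaked at E14.5 with 120 ± 6.74 CPM.

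The membrane-bound class 4 semaphorins rose as a family at the first step, where 6 of 6 passed upward (5 with length offsets, where Sema4c was at 0.08, adjusted p = 0.236). At the second step 4 fell and 1 rose, and from E12.5 to PND0 5 rose and none fell. Sema4d rose by 1.70 (SE 0.0903, adjusted p = 8.17e-08), from 19.7, 24.7, 22.3 and 21.8 CPM to 69.8, 66.9, 73.0 and 78.0 CPM. Sema4f rose by 1.67 and Sema4g, the most abundant at 43.6 CPM per kb, by 1.37. Sema4c was at -0.15 (adjusted p = 0.162; with length offsets -0.30, adjusted p = 0.0155).

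Of the 7 class 5 to 7 genes, 5 rose (4 with length offsets, without Sema6c) and 2 fell from E12.5 to PND0. The GPI-anchored Sema7a rose by 1.80 (SE 0.111, adjusted p = 2.08e-07), from 24.5, 25.8, 33.1 and 34.03 CPM to 103.5, 102.6, 93.97 and 109.5 CPM. Sema6b followed it closely, at 1.77. Both class 5 genes fell: Sema5a by 1.07 (SE 0.169, adjusted p = 0.000184) and Sema5b by 0.82. Sema6c was the most abundant, at 37.1 CPM per kb.

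Plexins rose with age more often than not. At the first step 8 of 9 rose and none fell, at the second 5 fell and 2 rose, and at the third 6 rose and none fell. Plxna1, a partner of the neuropilins, went up, down and up, with 309.5 ± 26.5, 470.2 ± 5.42, 267 ± 9.74 and 539 ± 56.1 CPM over the 4 stages. Plxnd1 also went up, down and up, by 0.64, -0.87 and 1.19. With length offsets Plxnb2 did not pass at the first step, and 3 of the 6 rises at the third did not (Plxna3, Plxnb2 and Plxnb3). From E12.5 to PND0 the A plexins, Plxnc1 and Plxnd1 rose (Plxna2 not with length offsets), and Plxna4 rose most of these, by 1.57. Plxnb3 rose by 2.01 (SE 0.293, adjusted p = 0.000103) but reached only 2.30 ± 0.281 CPM. Plxnb1 fell by 0.41 (SE 0.0829, adjusted p = 0.00117), and Plxnb2, the most abundant plexin at 52.2 CPM per kb, did not pass (-0.17, adjusted p = 0.084; with length offsets -0.37, adjusted p = 0.00263). Both neuropilins rose. Nrp1 rose by 0.87 (SE 0.191, adjusted p = 0.00186) and Nrp2, the more abundant at 28.4 CPM per kb, by 0.51.

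Netrin ligands fell or did not pass. Ntn1 fell by 0.55 (SE 0.122, adjusted p = 0.00195) and Ntn4 by 0.97 (SE 0.166, adjusted p = 0.000345), while Ntn3 was at 0.04 (adjusted p = 0.886). Ntn3 held 43.7, 24.6, 18.3 and 22.3 CPM at E12.5 and 26.0 to 30.8 CPM at PND0. Its highest E12.5 value is that of replicate 1, and the other E12.5 libraries lie below every PND0 library. Ntn1 was the most abundant netrin, at 16.3 CPM per kb. Its receptors crossed over. Dcc, the attractive receptor, held 158, 210.0, 276 and 265 CPM at E12.5 and 61.8, 64.8, 67.5 and 74.0 CPM at PND0, and fell by 1.76 (SE 0.154, adjusted p = 2.18e-06) through falls at all 3 steps. Unc5a held 9.86, 13.1, 23.0 and 18.03 CPM at E12.5 and 93.9, 97.1, 83.2 and 75.0 CPM at PND0, and rose by 2.44 (SE 0.213, adjusted p = 2.18e-06). For both genes no library of one stage reached the range of the other. Unc5d rose by 1.64, Unc5b fell by 0.82 and Unc5c was at -0.31 (adjusted p = 0.176; with length offsets -0.50, adjusted p = 0.0407). Per kb of transcript, Dcc and Unc5a stood at 22.01 and 4.01 CPM at E12.5 and at 6.49 and 21.9 CPM at PND0.

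Slit1 and Slit2 moved in opposite directions. Slit1, the most abundant Slit at 20.8 CPM per kb, rose by 0.94 (SE 0.140, adjusted p = 0.000118), and Slit2 fell by 1.3 (SE 0.0894, adjusted p = 4.04e-07), from a mean of 92.2 ± 3.32 to 37.6 ± 4.37 CPM. Slit3 was at 0.02 (adjusted p = 0.969), and its E12.5 values ran from 9.18 to 37.5 CPM, the highest in replicate 1. Without that library Slit3 rose by 0.56 (adjusted p = 0.0326).

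Robo3 showed the widest course of the set. It held 161, 84.4, 109 and 156 CPM at E12.5, 67.95, 58.6, 74.6 and 75.4 CPM at E14.5, 7.42, 14.9, 14.97 and 16.7 CPM at E16.5, and 12.7, 12.7, 12.1 and 13.3 CPM at PND0. The libraries of the first 3 stages do not overlap, and those of E16.5 and PND0 do. In WT the 4 cerebellum genes summed to 452 to 481 CPM at E14.5 and to 209 to 317 CPM at PND0. At E16.5 their sums were 211, 317, 337 and 412 CPM in order of replicate. The part of regional makeup in the Robo3 values was not tested. Robo3 fell by 0.91 at the first step, by 2.34 (SE 0.226, adjusted p = 6.98e-05) at the second, and was at -0.15 (adjusted p = 0.544) at the third. From E12.5 to PND0 the fall was 3.34 (SE 0.200, adjusted p = 1.68e-07), and it was also past the threshold without E12.5 WT replicate 1 (fell by 3.21). Robo2 rose by 0.81 (SE 0.105, adjusted p = 4.59e-05). Robo1, the most abundant Robo at 32.3 CPM per kb, was at -0.08 (adjusted p = 0.305; with length offsets -0.25, adjusted p = 0.00319) from E12.5 to PND0, after a rise by 0.20 to E14.5 and a fall by 0.43 to E16.5. Robo4 was at 0.00 (adjusted p = 0.997).

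Other genes of axon guidance, 75 in number, were counted from a list by role. Of the 11 further cues, 18 co-receptors and adhesion molecules and 46 cytoplasmic effectors, 42 rose and 11 fell from E12.5 to E14.5 (all genes 27.3% up and 30.5% down). From E14.5 to E16.5, 20 rose and 34 fell (29.3% and 28.2%), and from E16.5 to PND0, 39 rose and 10 fell (26.0% and 27.2%). Their median log2 fold changes were 0.31, -0.16 and 0.21.

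Few of the 69 genes passed the threshold in KO against WT, and a gene that did not pass is not shown to be unchanged. At E12.5 none of the 67 genes tested passed the threshold, at E14.5 and E16.5 none of 68, and at PND0 2 of 68, both lower in KO (of all genes, 1.03% were called lower at PND0). The same test called 0.0177, 0.527, 0.0462 and 1.44% of all genes at these stages, so few calls among 67 or 68 genes were made where few were made anywhere. By an unadjusted p under 0.05 the counts were 5 of 67, 14 of 68, 9 of 68 and 24 of 68. At each stage this was a larger share than over all genes (4.7, 8.73, 11.5 and 18%). The genes share the same libraries, so these shares are a description. Among the genes to which DESeq2 gave an adjusted p, it called 0 of 69, 2 of 58, 0 of 29 and 9 of 65 (all genes 0.13, 1.18, 4.93 and 7.19%). The median log2 fold change of the genes was -0.03, 0.00, 0.07 and 0.03 in order of age, against 0.00 over all genes at each stage.

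**Figure D3:**
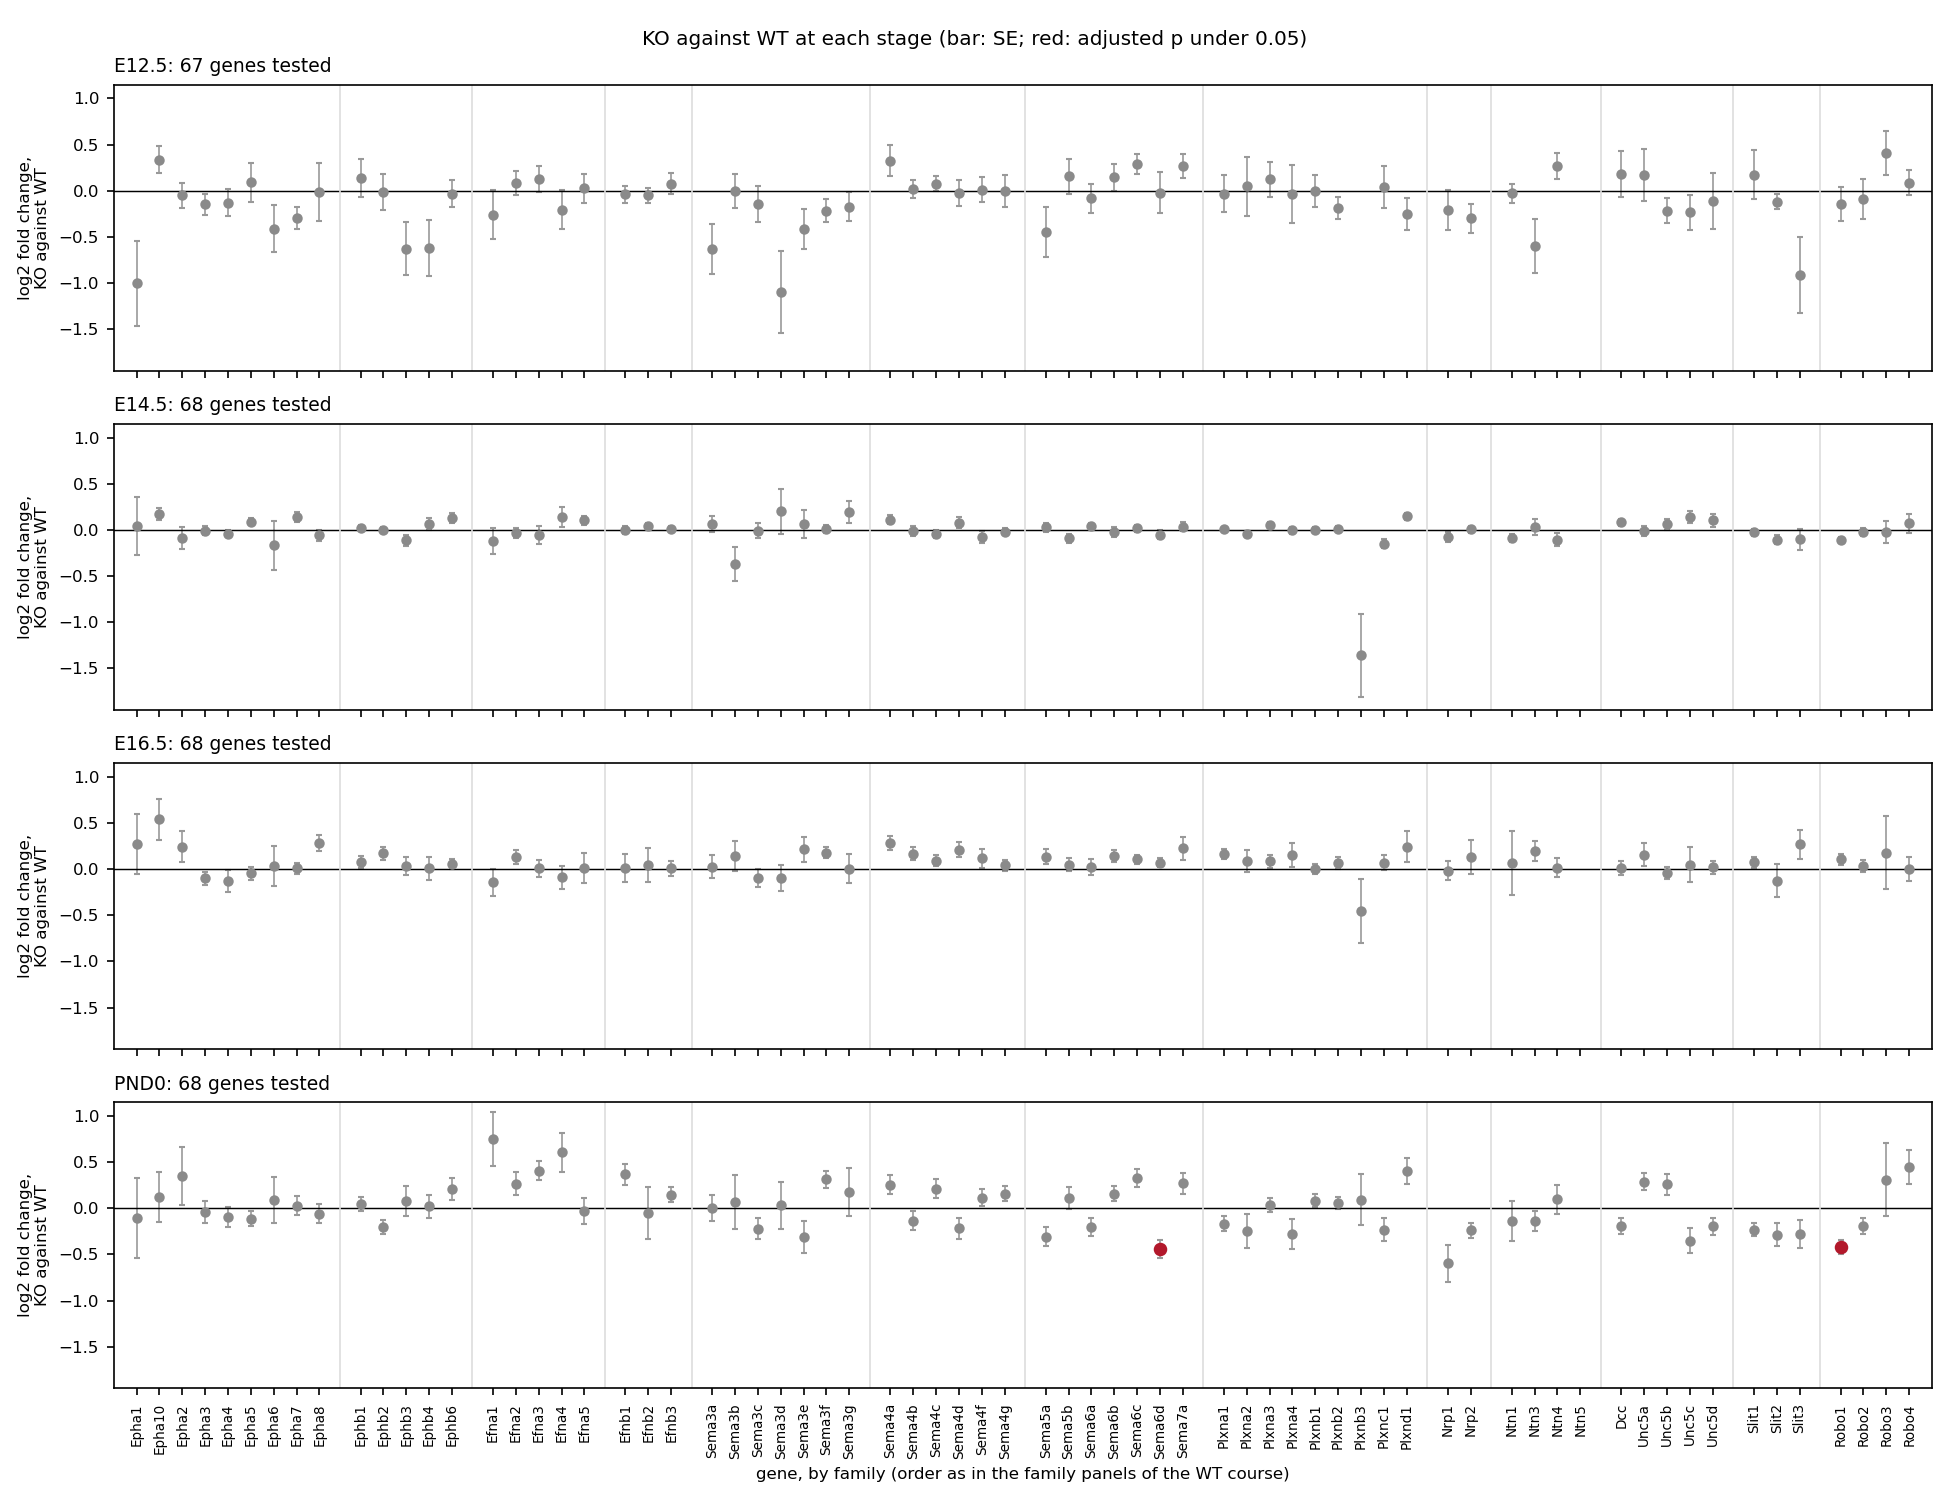
Log2 fold change of KO against WT for each gene at the 4 stages, by family, with bars of 1 SE and red points for an adjusted p under 0.05. The 2 red points are Sema6d at -0.44 and Robo1 at -0.42 at PND0.

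At E12.5 the spread between libraries was widest. The gene with the smallest p, Sema6c, was at 0.29 (SE 0.110), followed by Epha7 at -0.29 (SE 0.116) and Sema3d at -1.09 (SE 0.445), all with an adjusted p of 0.875. Sema6c held 131, 138, 160 and 181 CPM in WT and 184, 207, 197 and 173 CPM in KO, and the groups overlap. Sema3d held 13.2, 5.65, 3.41 and 5.44 CPM in WT and 3.17, 3.41, 1.75 and 4.90 CPM in KO, and the highest value is again WT replicate 1. The 7 class 3 semaphorins had values from -1.09 to 0.00, of which none passed. The 6 meningeal genes summed to 981 to 2099 CPM in WT and to 438 to 2006 CPM in KO, and their part in the values was not tested. Of the 69 genes, 32 had their lowest value of the 8 libraries in KO replicate 1 and 24 their highest in WT replicate 1. Without both of these libraries none passed either, and the median was 0.04 instead of -0.03.

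At E14.5 the libraries of a group lay closest together, with a common coefficient of biological variation of 6.25% against 9.99 to 19.9% at the other stages. The share of counts on CT010467.1 was 2.679 and 2.553% in KO replicates 3 and 4. In the other E14.5 libraries it was 0.869 to 1.174%. Plxnd1, the semaphorin receptor of endothelium, came nearest the threshold: it held 143, 134, 145.2 and 134 CPM in WT and 160.5, 148, 150.0 and 157 CPM in KO. Every KO library was above every WT library, with a log2 fold change of 0.15 (SE 0.0380, adjusted p = 0.0554). With DESeq2 the adjusted p was 0.0288. A list of 7 endothelial genes summed to 275 to 299 CPM in WT and 286 to 314 CPM in KO, with none of the 7 past the threshold, and its part in the value was not tested. Robo1 was at -0.11 (SE 0.0328, adjusted p = 0.138), with 277, 298, 285 and 283 CPM in WT and 257, 263, 278 and 259 CPM in KO, a near separation broken by KO replicate 3. Plxnc1 was at -0.15 (SE 0.0480, adjusted p = 0.243). Groups did not overlap for 5 of the 68 genes, 3 higher and 2 lower in KO (all genes 4.78%, 2.18% higher and 2.61% lower).

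At E16.5 the values leaned upward without passing. Of the 68 genes 56 had a positive value, against 50% of all genes, and all 6 class 4 and all 7 class 5 to 7 semaphorins were among them. With a trend of log count on transcript length taken out of each library, 45 were positive and the median was 0.03 instead of 0.07. The genes share the same libraries, so these counts are a description. Of the 69 genes, 22 had their lowest value of the 8 libraries in WT replicate 2 and 16 in WT replicate 1. The highest value lay there for 7 and 12. WT replicate 1 had 3.754% of counts on CT010467.1, against 0.356 to 0.626% in the other E16.5 libraries. With 1 library left out the median ran from 0.052 to 0.089. Sema4a was first, with 45.8, 50.4, 40.4 and 50.45 CPM in WT and 56.9, 57.0, 58.7 and 56.0 CPM in KO, at 0.28 (SE 0.0725, adjusted p = 0.240). Its groups did not overlap. Epha8 followed at 0.28 (SE 0.0891, adjusted p = 0.302), with 28.6 to 39.4 CPM in WT and 42.0 to 46.6 CPM in KO, and Plxna1 at 0.16 (SE 0.0540, adjusted p = 0.310), with 252 to 273 CPM in WT and 278 to 314 CPM in KO. With no filter on low counts Sema4a and Epha8 passed, in a setting that called 0.678% of all genes instead of 0.0462%. Groups did not overlap for 5 genes, all higher in KO (all genes 6.45%, 2.87% higher).

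At birth Robo1 and Sema6d were lower in KO. Robo1, the Slit receptor (chr16:72308306-73046095 in GRCm38, plus strand), held 229, 228, 247 and 234 CPM in WT and 169, 194, 159 and 178 CPM in KO. Every KO library lay below every WT library, and the mean went from 234 ± 8.52 to 175 CPM and fell by 0.42 on the log2 scale (SE 0.0757, adjusted p = 0.017). Sema6d, a transmembrane semaphorin that binds Plxna1 (chr2:124089969-124667770, plus strand), held 108, 104, 131 and 105 CPM in WT and 80.3, 93.9, 81.5 and 74.4 CPM in KO. Again no libraries overlapped, and it fell by 0.44 (SE 0.0952, adjusted p = 0.0338). Both calls were lost when single libraries were left out. Robo1 lost it without WT replicate 1 (adjusted p = 0.0526), WT replicate 3 (0.0569) or KO replicate 1 (0.0680), and Sema6d without WT replicate 1 (0.0820), WT replicate 3 (0.121), KO replicate 1 (0.102) or KO replicate 4 (0.0611).

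**Figure D4:**
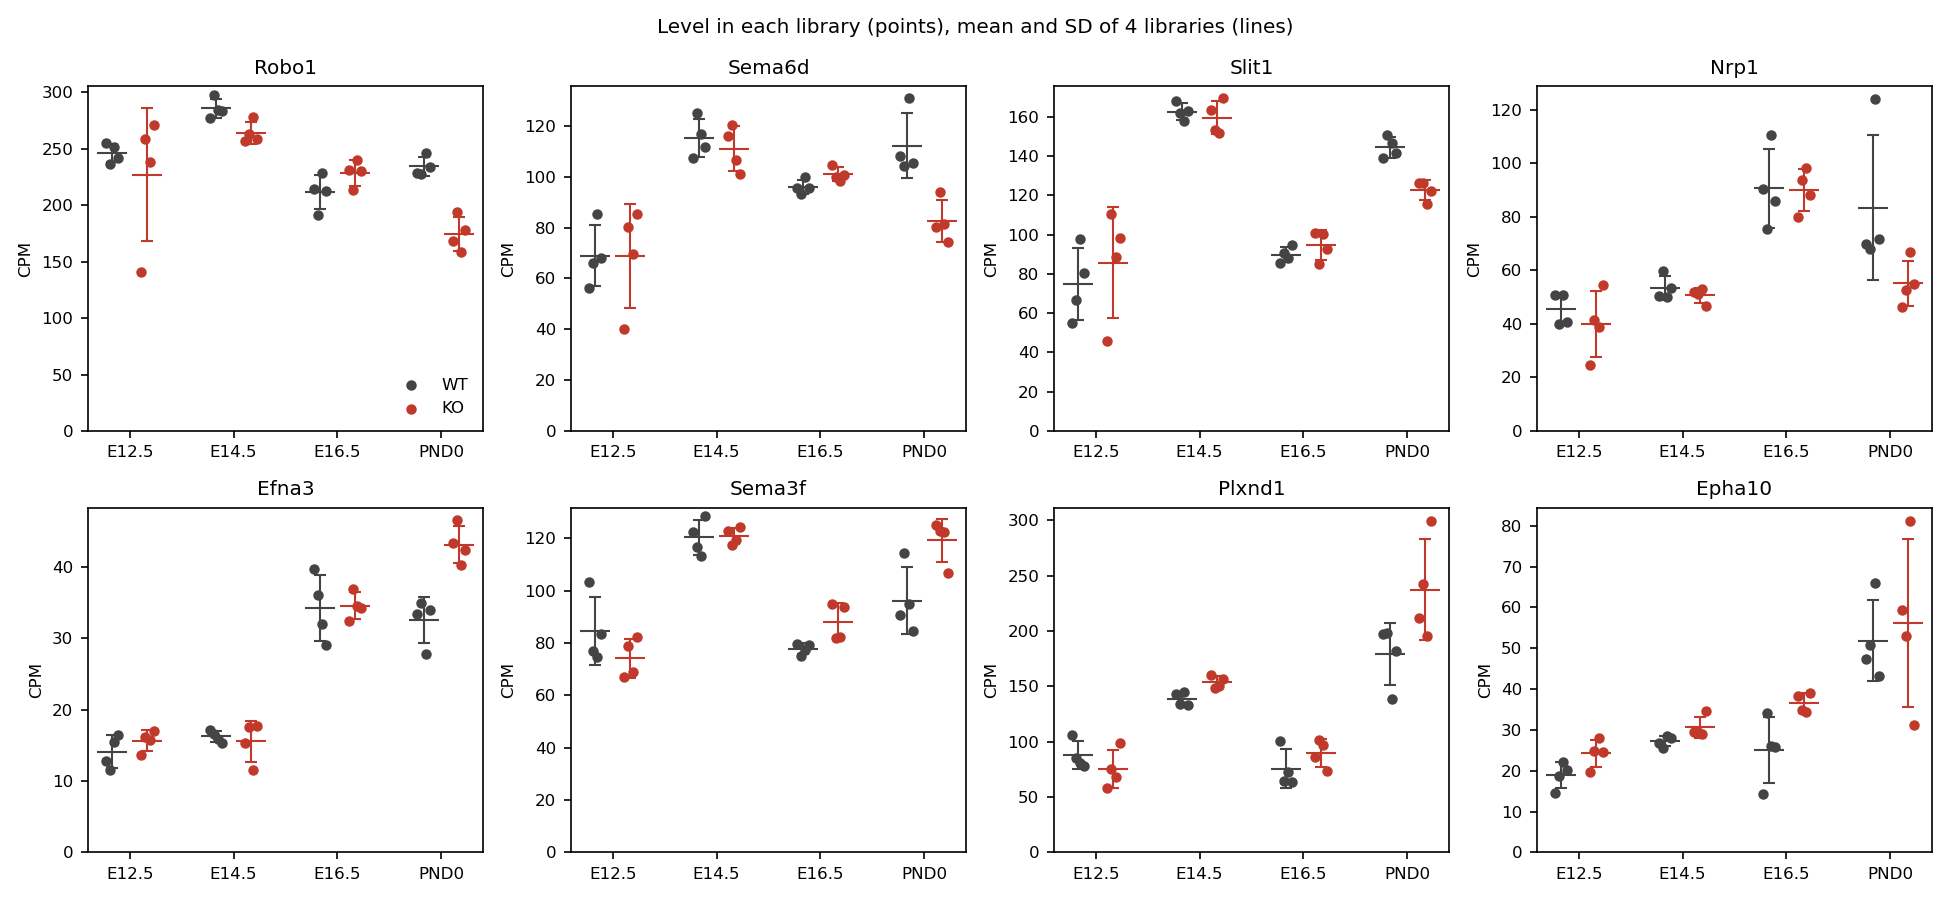
CPM in each library (points) with the mean and SD of 4 libraries for 8 genes at the 4 stages, WT dark and KO red. At PND0 the groups do not overlap for Robo1, Sema6d, Slit1, Nrp1 and Efna3, and at E12.5 KO replicate 1 lies lowest for Robo1, Sema6d, Slit1, Nrp1, Sema3f and Plxnd1.

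Slits and neuropilins, none of which passed, had values below 0 at PND0. The 3 Slits were at -0.23 to -0.29. Slit1, the Robo ligand of the forebrain, held 139, 150.5, 146 and 142 CPM in WT and 126, 126, 116 and 122 CPM in KO, with no overlap, at -0.23 (SE 0.0692, adjusted p = 0.0943). Nrp1, the co-receptor of Sema3a, was at -0.59 (SE 0.202, adjusted p = 0.162). It held 69.8, 68.2, 124 and 71.7 CPM in WT and 46.4, 52.6, 66.8 and 54.7 CPM in KO, and without WT replicate 3, the highest of the 8, it was at -0.34 (adjusted p = 0.245). Nrp2 was at -0.24 (adjusted p = 0.133), also without overlap.

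Values above 0 were found for 4 of the 5 ephrin-A and 2 of the 3 ephrin-B ligands, with the others at -0.02 and -0.05. Efna3 held 33.4, 35.0, 27.9 and 33.9 CPM in WT and 43.3, 46.6, 40.3 and 42.3 CPM in KO, all KO above all WT, at 0.41 (SE 0.102, adjusted p = 0.0583). Efna1, Efna2 and Efna4 were at 0.75, 0.27 and 0.60 and Efnb1 at 0.37, with adjusted p from 0.0962 to 0.271. Efna1 held 2.61 to 3.81 CPM in WT and 3.20 to 7.66 CPM in KO, and its groups overlap. Sema3f was at 0.31 (SE 0.0929, adjusted p = 0.0940), Sema6c at 0.33, and the netrin receptors Unc5a and Unc5b at 0.29 and 0.26. No EphA receptor had an unadjusted p under 0.05. In all, 4 genes were higher and 9 lower in KO with no overlap of the groups, 13 of 68 (all genes 11.7%, 5.43% higher and 6.27% lower).

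Transcript length moved with the PND0 values. Over the 68 genes the log2 fold change and the length of the longest transcript had a Spearman correlation of -0.64, given as a description because the genes share the same 8 libraries. Over all genes it was -0.34. The 34 longer genes had a median of -0.19 and the 34 shorter ones of 0.15. The ligands and receptors are long, with a median of 5019 nt against 3182 nt over all genes. With length offsets Robo1 was at -0.27 (adjusted p = 0.110) and Sema6d at -0.30 (adjusted p = 0.146), and none of the 68 genes passed. Slit1 then stood at -0.12, Ephb2 at -0.02, Dcc at -0.01, Nrp1 at -0.58 and Efna3 at 0.36, and Plxnd1 went from 0.41 to 0.55. The share of counts on CT010467.1 ran from 1.799 to 2.785% in WT and from 1.157 to 2.088% in KO, and with that share as a covariate none passed. Robo1 was then at -0.29 and Sema6d at -0.37, and of all genes 2 passed instead of 250. The share in KO replicates 1, 3 and 4 lay below that of every WT library. This covariate and genotype therefore overlap at PND0, and the loss of calls cannot tell them apart. With length offsets 46 of all genes passed. At the other stages, in order of age, the correlation over these genes was -0.17, 0.11 and -0.07. Over all genes it was -0.23, 0.03 and 0.21.

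**Figure D5:**
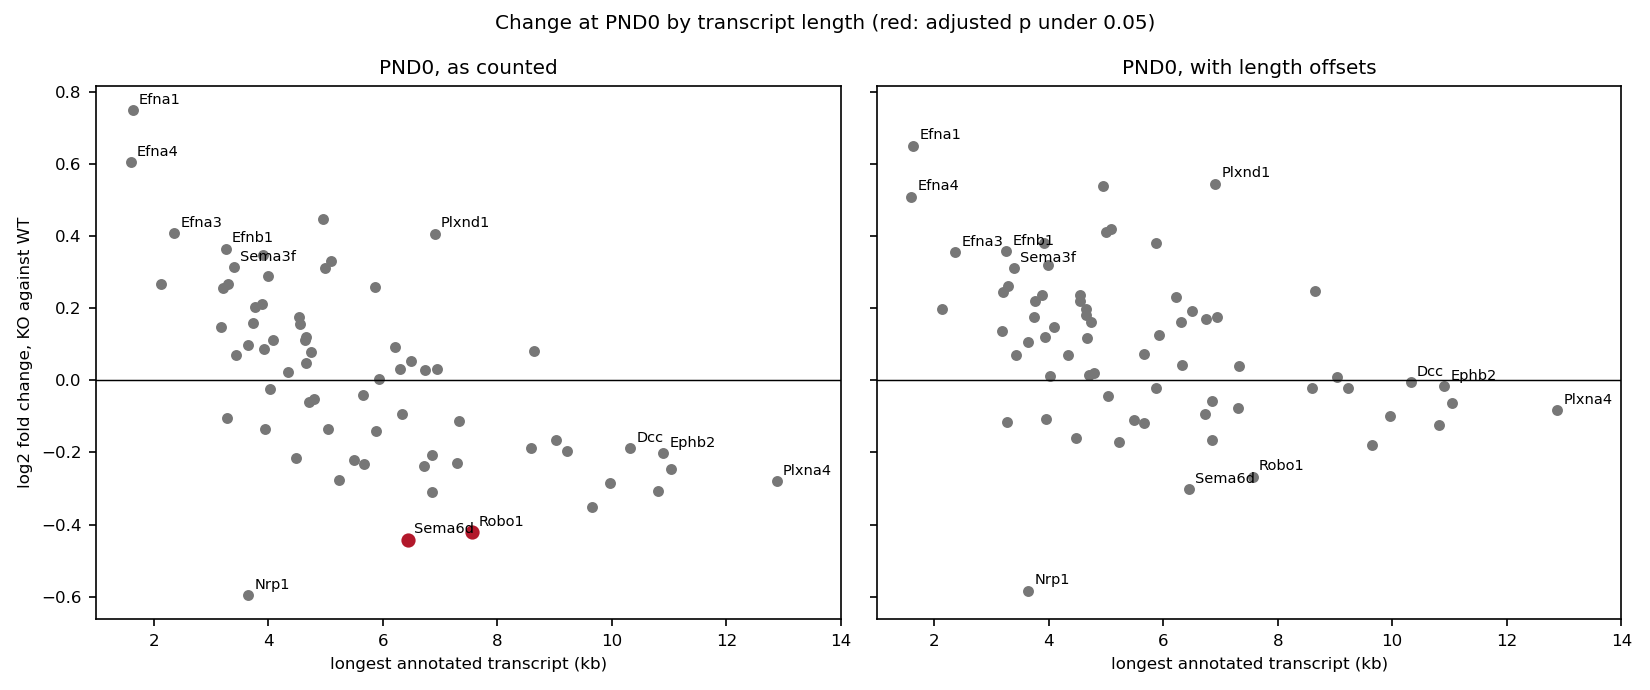
Log2 fold change of KO against WT at PND0 against the length of the longest annotated transcript (kb), for the 68 genes as counted (left) and with length offsets (right), with red for an adjusted p under 0.05. On the left long genes lie lower (Spearman -0.64), and on the right Robo1 and Sema6d are at -0.27 and -0.30 with no gene past the threshold.

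Markers of other cells were summed at PND0. The 6 blood genes summed to 200 to 268 CPM in WT and to 235, 556, 634 and 2298 CPM in KO, the last in replicate 3. The 5 choroid plexus genes summed to 330 to 623 CPM in WT and to 617 to 1001 CPM in KO. The groups overlap in both sums, none of the genes of either list passed, and their part in the values above was not tested. Without KO replicate 3 Robo1 was at -0.38 (adjusted p = 0.0295) and Sema6d at -0.44 (adjusted p = 0.0452). The 7 neuron markers summed to 5560 to 6345 CPM in WT and 5971 to 6328 CPM in KO.

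Whether the KO effect differed between stages was tested in all 32 libraries. None of the 69 genes passed (all genes 0.0256%), and 14 had an unadjusted p under 0.05 (all genes 13.5%). DESeq2 called 1 of 67, Sema3f (all genes 2.24%). Sema3f had the smallest p (adjusted p = 0.180), with KO values of -0.21, 0.01, 0.18 and 0.31 over the stages. Robo1 was next (adjusted p = 0.273), with -0.14, -0.11, 0.11 and -0.42, and Sema6d was at an adjusted p of 0.375. Without E12.5 KO replicate 1, the library with the high ribosomal share, Robo1, Sema6d and Slit1 passed (adjusted p = 0.000766, 0.0153 and 0.0383). That setting called 797 of 20007 genes, 3.98%, so 3 of 69 was near the share over all genes. With all libraries in the fit, the decreases at PND0 were not shown to differ from the other stages.

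Among the 75 other axon guidance genes, none passed in KO at E12.5 or E16.5 and 2 passed at E14.5 (all genes 0.527%). Dpysl2 (Crmp2), the collapsin response mediator that acts below Sema3a, rose by 0.14 (adjusted p = 0.0289), from 311 ± 3.62 to 342 ± 17.8 CPM. Cdon, a co-receptor of Shh, fell by 0.15 (adjusted p = 0.0394). With the ribosomal RNA covariate neither passed, at 0.09 and -0.14 (adjusted p = 0.294 and 0.124). At PND0 Mical2 rose and 5 genes fell, 6 of 75 (all genes 1.44%, 1.03% lower). The Slit-Robo GTPase activating proteins Srgap3 and Srgap1, which bind the Robo tail, fell by 0.46 (SE 0.0744, adjusted p = 0.01) and 0.41 (SE 0.0849, adjusted p = 0.0288), Srgap3 from 628 ± 40.7 to 455 ± 32.5 CPM. Dscam, a receptor for netrin, fell by 0.51, the adhesion molecule Cntn1 by 0.57 and the cue Wnt5a by 0.56, with adjusted p from 0.0386 to 0.0431. With length offsets these 5 were at -0.25 to -0.45 and no longer passed (adjusted p from 0.107 to 0.186), whereas Mical2, a monooxygenase of the MICAL family that oxidises actin, stood at 0.52 and passed (adjusted p = 0.0192). With the ribosomal RNA covariate, which overlaps with genotype at PND0 and left 2 calls over all genes, none of the 6 passed (adjusted p from 0.544 to 0.724). Their values were then -0.48 (Srgap3), -0.43 (Srgap1), -0.49 (Dscam), -0.72 (Cntn1), -0.42 (Wnt5a) and 0.35 (Mical2).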

How the data were processed

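Polyadenylated RNA of 32 brain libraries was sequenced as paired reads, per the labels. For each stage the authors deposited raw counts, with gene symbols in rows and libraries in columns. The submitters' processing notes name HISAT2, SAMtools, featureCounts, DESeq2 and the build mm10. The annotation and the strand setting are not given in the sources used here, so reads of overlapping genes may be shared. Positions and transcript lengths came from GENCODE M21 (GRCm38), and promoter windows from RefSeq.

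Each comparison was fitted on its own libraries with edgeR 4.0.16 in R 4.3.3 (TMM, filterByExpr with minimum count 10 and minimum total 15, robust quasi-likelihood F test). The fit used the counts as deposited, and p-values were adjusted by Benjamini-Hochberg over all genes tested, with a threshold of 0.05. The WT course was tested over 16 libraries and the change of the KO effect with stage over 32. The SE is the size of a log2 fold change divided by the square root of F. Printed CPM use TMM over all libraries. Levels between genes are compared only per kb of longest transcript. Scripts were tested on simulated data.

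The members and gene lists were chosen with earlier results of these data known. Named by rule were genes past the threshold in a KO fit, the 3 smallest p at each stage, and for each family the most abundant gene and the largest rise and fall from E12.5 to PND0. Other genes of the set are named as examples, chosen with their values in view. Alternatives were RLE size factors, no filter, DESeq2 1.42.0, a replicate block, 1 fit of all libraries, length offsets, covariates for ribosomal RNA and sex genes, and each library left out. Fits without both number 1 libraries at E12.5 and 2 WT fits with length offsets were chosen after seeing the data.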

Additional observations from a re-analysis of the deposited data

Results flagged for a closer look

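In 87 groups of 4 libraries, 1 per named gene and group, the gap between the highest or lowest library and its nearest neighbour was set against the range of the group. A gap above 0.829 of the range was found in 5, and chance alone gives about 1 group in 20. Nrp1 reached 124.0 CPM in PND0 WT replicate 3, with the next library at 71.7. In the same library Sema6d reached 131.0 CPM, with the next at 108, and Efna4 6.41 CPM, with the next at 4.98. Efna2 reached 48.9 CPM in PND0 WT replicate 2, with the next at 38.6. Nrp2 reached 202.0 CPM in E12.5 WT replicate 1, the library with the high muscle and Hox gene sums, with the next at 158.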

How the results depend on the processing

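In KO against WT at PND0 the 2 calls became 9 with no filter on low counts, 9 with DESeq2, 8 with all 32 libraries in 1 fit, 0 with length offsets and 0 with the ribosomal RNA covariate, and from 0 to 4 with 1 library left out (4 when WT replicate 2 was dropped, 1 when KO replicate 4 was dropped, and 0 when the first or the third WT library or the first KO library was dropped). Over all genes, 250 calls became 1091, 921, 1205, 46 and 2 in these 5 settings, 356 with the replicate block, and 35 to 263 with 1 library left out. Over the settings that added calls, 11 genes passed in at least 1 of 4 and 3 in all 4 (Robo1, Sema6d and Nrp1). With the replicate block the count at PND0 was 4 (all genes 2.04%) and at E14.5 it was 1 (all genes 0.734%). Same-numbered WT and KO libraries had correlations from -0.20 to 0.27 of their deviations, and not every library correlated best with its own number, so the numbers are not shown to pair the libraries. The block moved no other count by over 1.5 times. At E14.5 the count was 2 with DESeq2 (Plxnd1 and Robo1, all genes 1.18%) and 1 with the sex-gene covariate (all genes 0.583%). With 1 library left out it ran from 0 to 1 (all genes 0.287 to 0.857%). Plxnd1 passed without WT replicate 3 and Robo1 without KO replicate 3. At E16.5 it was 2 with no filter (all genes 0.678%). In the test across stages it was 1 with DESeq2 (all genes 2.24%). With 1 library left out it ran there from 0 to 3 (3 without E12.5 KO replicate 1). The median of the genes with length offsets was 0.030 at E16.5 and 0.11 at PND0, and with the ribosomal RNA covariate -0.027 at PND0. With 1 library left out it ran from 0.052 to 0.089 at E16.5 and from -0.056 to 0.031 at PND0, the lowest without KO replicate 3. The cause of these differences was not tested. Counts for the WT course, the WT steps and KO at E12.5 stayed within 1.5 times of the values given under every alternative run. These counts take rises and falls together, and length offsets moved the balance between them in some families. DESeq2 moved the median of all genes from E12.5 to PND0 in WT from -0.05 to 0.11. Depth limits Ntn5, Plxnb3, Epha1 and Epha6, which had few counts.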
